A study of Mus musculus with 6 samples.

Results

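The stretch of mouse chromosome 13 from Ankrd55 to Il6st (mm9, 113.05 to 113.32 Mb, 270 kb) was described by its DNase I hypersensitive regions in fasted and fed liver. Hotspots, local excesses of DNase I cuts called by the authors in each library, were merged across the 6 libraries wherever they shared at least 1 bp, and every merged region touching the window was taken. This gave 29 regions of 75169 on chromosomes 1 to 19 and X. The window was chosen because hotspots in it had been lower in fasted livers in these same data, so its fasted and fed values are a description of that difference and not a test of it. The 2 groups were 3 liver libraries from C57BL/6 mice fasted for 24 h and 3 liver libraries from C57BL/6 mice fed ad libitum, with livers taken at 6:00 in the morning, when the lights came on. C57BL/6 is an inbred laboratory strain, and no genetic change or drug is named in the labels. Replicates are numbered, but whether they are different animals is not in the labels, and their spread may be partly technical.

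Il6st encodes gp130, the signal-transducing receptor subunit shared by interleukin-6, interleukin-11, leukaemia inhibitory factor and oncostatin M. In hepatocytes the binding of interleukin-6 and its receptor to gp130 activates JAK kinases and STAT3, which turn on acute-phase genes such as those of fibrinogen. Ankrd55 encodes a protein with ankyrin repeats whose role in liver is not established. DNase I cuts DNA where nucleosomes are displaced, so hotspots mark promoters, enhancers and other open DNA. Liver is a mixture of cell types, and fewer cells of a type cannot be told apart from less open DNA per cell. In the RefSeq gene order Ankrd55 is followed by the long noncoding RNA genes Gm41065, Gm48837 and Gm33905 and then by Il6st and Il31ra. That order comes from GRCm38.p6 and the hotspots from mm9, so no region was assigned to a promoter, exon or intron, and marker genes of liver cell types were not placed.

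The promoter of Il6st is shown because it is the 1 promoter of the pair of named genes in the RefSeq table used here. It gives the sequence just before the site where transcription of Il6st begins. The run covers the 250 bases before the start site (GRCm38.p6, chr13:112463820-112464069, plus strand), with the match to the motif searched in capitals.
Il6st: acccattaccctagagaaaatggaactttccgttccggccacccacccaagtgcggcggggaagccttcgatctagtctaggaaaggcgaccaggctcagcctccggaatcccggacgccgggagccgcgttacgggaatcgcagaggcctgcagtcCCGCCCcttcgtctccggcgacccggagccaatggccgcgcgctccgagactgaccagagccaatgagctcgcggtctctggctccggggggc
Its GC content was 66.0%, against a median of 52.4% over 32851 promoter windows of the same length, and it held 26 CpG dinucleotides against a median of 6. The capitals mark a GC box, GGGCGG read on the minus strand, 93 to 88 bases before the start site. This motif occurred on either strand in 32.7% of the promoter windows. None of the other motifs searched on both strands was in these bases. They were the STAT motif TTCNNNGAA (in 7.02% of promoter windows), the C/EBP motif TTGCGCAA (0.164%), the cAMP response element TGACGTCA (1.55%) and the NF-kappa-B type motif GGAANTCCC (1.43%). The forkhead motif TGTTTAC was in 3.17% of promoter windows. The core promoter element TATAAA was in 12.4% of them. These are matches of letters, and no binding was measured.

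In the part of the window before its strongest region, 6 regions were shared by all libraries. Each had a lower mean log2 density (scaled as below) in fasted than in fed livers, as had 45.8% of all shared regions. Of the 6, 3 passed the threshold given below as lower, where 7.84% of all shared regions did. At the strongest region the groups stood close together. Of the 29 regions, 10 had a hotspot in all 3 fasted libraries, where 56.0% of all regions did, and 16 in all 3 fed libraries, where 55.7% did. Fasted replicates 1 to 3 had a hotspot in 11, 18 and 13 of the 29 regions, and in 62.6%, 82.4% and 63.4% of all regions. Fed replicates 1 to 3 had one in 20, 17 and 24 of the 29, and in 64.1%, 64.0% and 81.9% of all regions. Calls in the window and elsewhere are counts of what was listed, and because the fasted and fed contrast chose the window nothing is read from them. Sequencing depth relative to fed replicate 2 was 1.32, 1.90 and 1.24 in fasted replicates 1 to 3 and 1.02, 1.00 and 1.64 in fed replicates 1 to 3. Depth was read from the step of the deposited densities, on the assumption that 1 step is 1 tag. Each hotspot value here is the maximum tag density deposited by the authors, the height of overlapping tags on a scale that the sources used here do not give. Hotspot heights in the window ran from 16 to 485 steps, so the weak regions carry a large counting error.

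The 10 regions called in every library could be compared on 1 scale, log2(density + 1) minus the library's own median over all shared regions (centring). In this fit (limma over 37044 shared regions, Benjamini-Hochberg adjusted p under 0.05) 4 of the 10 passed as lower in fasted livers, where 7.84% of all shared regions did. The count was 2 without fasted replicate 1, fasted replicate 3, fed replicate 1 or fed replicate 3, and 2 with the replicate number as a block. Over all shared regions the 2905 that passed as lower also became fewer. They were 2280, 2471, 2030 and 2021 without those libraries in turn, and 2539 with the block. As higher in fasted livers 0 of the 10 passed, where 7.89% of all shared regions did (limma). An unadjusted p under 0.05 (limma) as higher was found at 0 of the 10, and at 5390 of the 37044 shared regions. As lower it was found at 7 of the 10, and at 4853 of the 37044. These counts too are a description. The difference, fasted minus fed, was below 0 in 9 of the 10, against 45.8% of all shared regions. Its median was -0.52 over the 10 and 0.03 over all shared regions. On the centred scale every fasted library lay under every fed library at 6 of the 10, against 14.6% of all shared regions, and above every fed library at 1, against 16.8%.

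**Figure D1:**
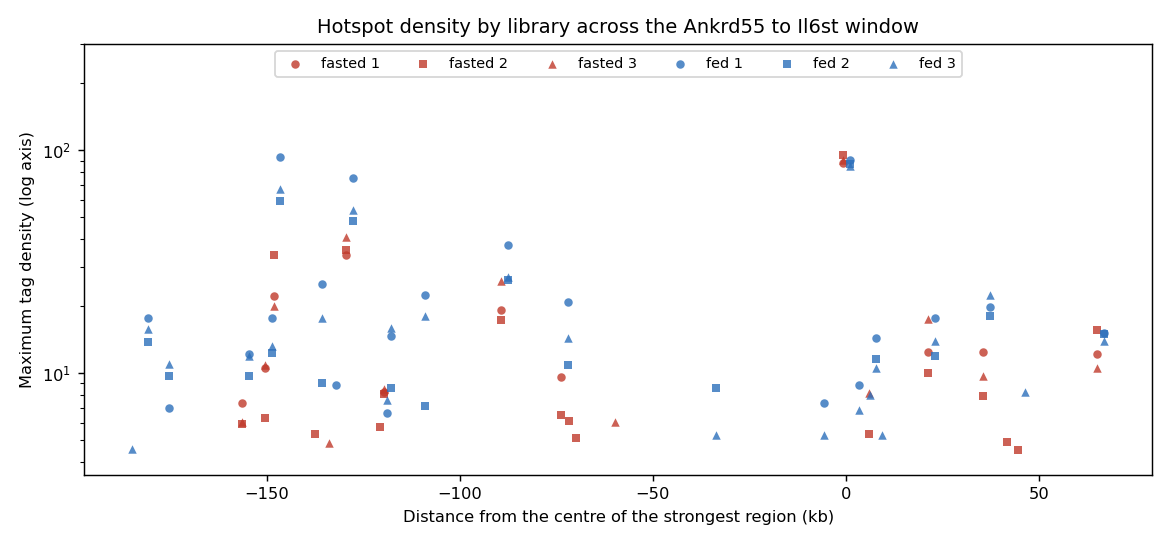
Maximum tag density (log axis) of every hotspot in the window against distance in kb from the centre of the strongest region, for fasted (red) and fed (blue) libraries, with fasted points drawn slightly left and fed points slightly right of their position. At the strongest region the 6 libraries sit together between 84.9 and 95.7, while 147.3 kb before it the fasted libraries sit between 20.0 and 33.7 and the fed libraries between 59.2 and 93.4.

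The largest difference lay at the region from 113106592 to 113107812, 1221 bp wide and 147.3 kb before the strongest region. Its maximum tag density was 22.1, 33.7 and 20.0 in fasted replicates 1 to 3 and 93.4, 59.2 and 67.1 in fed replicates 1 to 3. The highest fasted library, replicate 2, stayed well under the lowest fed library, replicate 2. The group values were 25.3 ± 7.41 in fasted and 73.2 ± 17.9 in fed livers (SD, n = 3 each). The log2 difference was -1.43 (SE 0.22), or 2.70-fold lower in fasted livers on the log2(density + 1) scale. Every SE of a log2 difference here is limma's moderated SE, with its variance drawn toward the trend over all shared regions. It is therefore not the spread of the region's own replicates, which was 0.41 within groups on the log2 scale here. The average density over the hotspot gave the same separation, at 7.75, 12.3 and 8.44 in fasted and 34.7, 22.2 and 28.4 in fed replicates 1 to 3. The length of the hotspot itself overlapped between groups, at 1036, 1177 and 1003 bp in fasted and 1089, 1056 and 1219 bp in fed replicates 1 to 3. In the order of the 10 shared regions it ranked 3, 3 and 4 in fasted and 1, 2 and 2 in fed replicates 1 to 3.

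The second strong region of the first part lay from 113125383 to 113126432, 1050 bp wide. It reached 33.8, 35.7 and 40.9 in fasted replicates 1 to 3 and 75.0, 48.3 and 53.8 in fed replicates 1 to 3. The groups did not overlap, but fed replicate 1 stood apart above the other fed libraries. The means were 36.8 ± 3.67 in fasted and 59.0 ± 14.1 in fed livers (SD, n = 3 each), and the log2 difference was -0.58 (SE 0.18). It no longer passed without fasted replicate 1 (-0.50), fasted replicate 3 (-0.59), fed replicate 1 (-0.41) or fed replicate 3 (-0.60), with the replicate number as a block, or without the mean-variance trend (both -0.58).

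Weaker shared regions of the same part followed in the same direction. The region from 113098596 to 113099467 had 7.38, 5.92 and 6.05 in fasted and 12.1, 9.74 and 11.9 in fed replicates 1 to 3. These groups did not overlap, the log2 difference was -0.65 (SE 0.22), and it no longer passed when any 1 of the 6 libraries was left out (adjusted p = 0.058 to 0.166, limma). The region from 113104755 to 113105564 had 10.5, 6.31 and 10.9 in fasted and 17.7, 12.4 and 13.3 in fed replicates 1 to 3. Its groups did not overlap either, and its log2 difference of -0.54 (SE 0.23) did not pass. At 113165810 to 113166619 the densities were 19.3, 17.4 and 26.0 in fasted and 37.5, 26.2 and 27.0 in fed replicates 1 to 3. Here fasted replicate 3 came close to fed replicates 2 and 3, and the log2 difference of -0.44 (SE 0.20) did not pass. The region from 113135447 to 113136154 had 8.23, 8.09 and 8.48 in fasted and 14.7, 8.62 and 16.0 in fed replicates 1 to 3. Its groups did not overlap as deposited but did after centring, with fed replicate 2 among the fasted libraries, and its log2 difference of -0.49 (SE 0.24) did not pass.

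**Figure D2:**
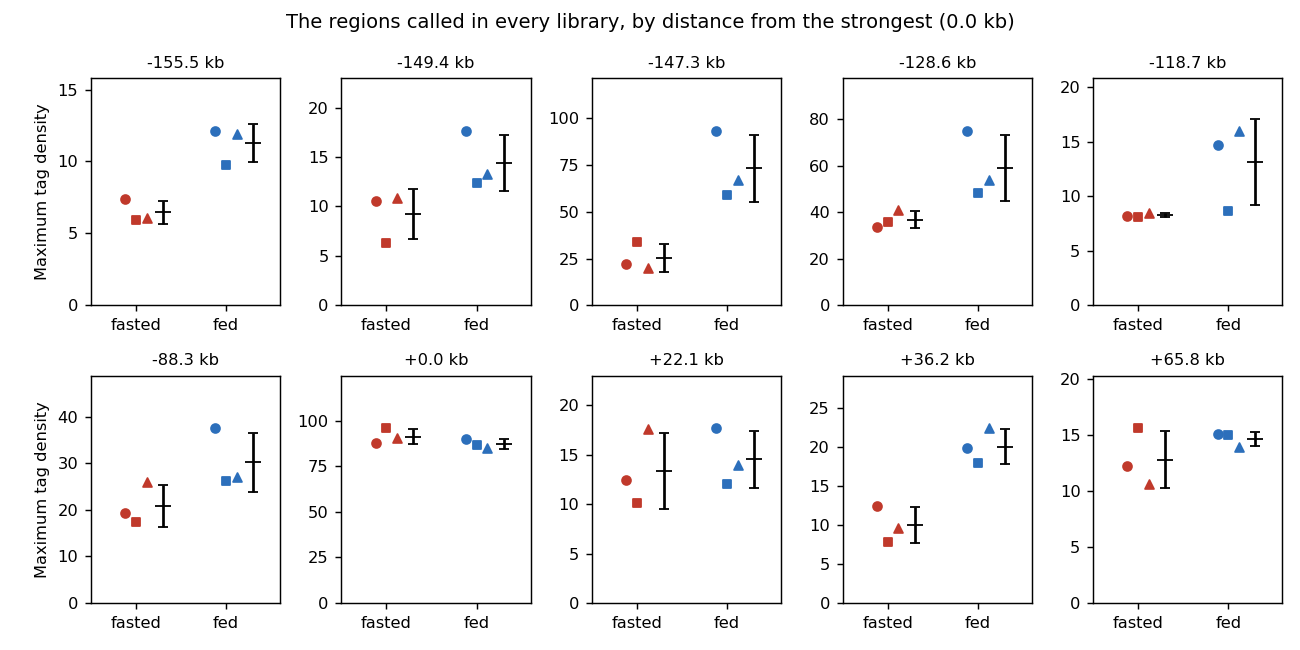
Maximum tag density in each library at the 10 regions called in all 6 libraries, each headed by its distance in kb from the strongest region, with fasted libraries left and fed libraries right (circle, square and triangle for replicates 1, 2 and 3; bars show mean and SD, n = 3 each). At -147.3 kb the means are 25.3 in fasted and 73.2 in fed livers, and at 0.0 kb they are 91.3 and 87.2.

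The strongest region of the window, from 113253284 to 113255753, was also the widest at 2470 bp. It reached 87.9, 95.7 and 90.2 in fasted replicates 1 to 3 and 90.1, 86.6 and 84.9 in fed replicates 1 to 3. The groups overlapped as deposited, and after centring the fasted libraries lay just above the fed ones. The means were 91.3 ± 3.99 in fasted and 87.2 ± 2.65 in fed livers (SD, n = 3 each), a log2 difference of 0.14 (SE 0.14) that did not pass. Its spread within groups, 0.12 on the log2 scale, was the smallest of the 10 regions, and the spread at 113106592 was the largest at 0.41. It ranked first in every library except fed replicate 1, where 113106592 was higher.

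A ratio of heights within 1 library does not depend on how libraries are scaled to each other, and the strongest region was taken as the base after the values were seen. The region at 113106592 stood at 0.252, 0.353 and 0.222 of it in fasted replicates 1 to 3 and at 1.04, 0.684 and 0.790 of it in fed replicates 1 to 3. For the region at 113125383 the ratio was 0.384, 0.373 and 0.453 in fasted and 0.833, 0.558 and 0.633 in fed replicates 1 to 3. Both ratios were lower in each fasted library than in any fed library, as the densities were. They reuse those densities and are no separate support. The base was itself slightly higher in fasted livers (log2 difference 0.14), which lowers every fasted ratio. At 113319900, where the densities overlapped between groups, the ratio too was lower in each fasted library than in any fed library.

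After the strongest region the picture was mixed. The region from 113290042 to 113291310 had 12.5, 7.89 and 9.69 in fasted and 19.9, 18.0 and 22.4 in fed replicates 1 to 3. Its groups did not overlap, with means of 10.02 ± 2.31 in fasted and 20.09 ± 2.23 in fed livers (SD, n = 3 each) and a log2 difference of -0.88 (SE 0.22). It lies outside the stretch from 113072461 to 113145103, but its values belong to the same contrast. That stretch was drawn here from these same calls. It is the run, with gaps of at most 20 kb, holding most regions that passed as lower or were called in 3 fed and 0 fasted libraries. The regions from 113276292 to 113277037 and from 113319900 to 113320731 overlapped between groups. The first had 12.5, 10.1 and 17.6 in fasted and 17.7, 12.0 and 14.0 in fed replicates 1 to 3, a log2 difference of -0.06 (SE 0.22). The other had 12.2, 15.6 and 10.6 in fasted and 15.1, 15.0 and 14.0 in fed replicates 1 to 3, a log2 difference of -0.13 (SE 0.22).

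**Figure D3:**
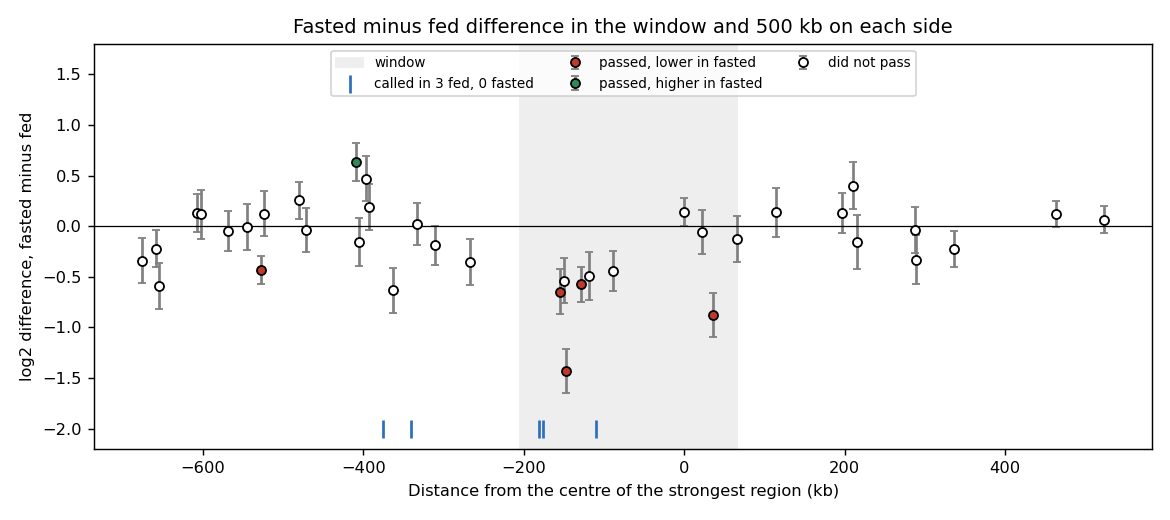
The log2 difference, fasted minus fed, of every region called in all 6 libraries (points) against distance in kb from the strongest region. Bars are limma's moderated SE. The window (grey) and 500 kb on each side are shown, with blue ticks at regions called in 3 fed and 0 fasted libraries. In the window the differences run from -1.43 to 0.14, and of the 3 ticks in it 2 lie before the first point, at -181.5 and -176.1 kb, and 1 lies at -109.8 kb.

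The other 19 regions lacked a hotspot in at least 1 library, and a missing call leaves the density there unknown and not 0. Hotspots called in all 3 fed and 0 fasted libraries numbered 3 of the 29, against 1.57% of all regions, and those called in all 3 fasted and 0 fed libraries numbered 0, against 1.17%. The region from 113072461 to 113073621 reached 17.7, 13.9 and 15.8 in fed replicates 1 to 3, or 48, 37 and 69 steps. The region from 113077785 to 113079144 reached 6.99, 9.74 and 11.0 in these libraries, or 19, 26 and 48 steps. At 113144249 to 113145103 they reached 22.4, 7.12 and 18.1. For scale, the weakest 5% of hotspots anywhere lay at or under 4.54, 2.96 and 4.54 in fasted replicates 1 to 3. Fed replicate 2 was low at 113144249, at 19 steps against 61 and 79 in fed replicates 1 and 3.

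Hotspots in at least 2 fed and 0 fasted libraries numbered 6 of the 29, against 4.33% of all regions, and the reverse 0, against 2.98%. The regions among them not given above were weak, as were some hotspots of the 3 above. The region from 113219808 to 113220175 had 8.62 and 5.26 in fed replicates 2 and 3, and the region from 113247616 to 113248057 had 7.36 and 5.26 in fed replicates 1 and 3. The region from 113256515 to 113257352 had 8.83 and 6.87 in fed replicates 1 and 3 and lay 2.4 kb from the centre of the strongest region. These hotspots stood 20 to 30 steps high, near the lowest heights in the window.

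In 6 regions hotspots came from some libraries of both groups. The region from 113117542 to 113118434 had 5.33 in fasted replicate 2 alone and 25.0, 8.99 and 17.6 in fed replicates 1 to 3. The region from 113181372 to 113182020 had 9.65 and 6.51 in fasted replicates 1 and 2 and 21.0, 10.9 and 14.4 in fed replicates 1 to 3. At 113260903 to 113261666 the values were 5.33 and 8.17 in fasted replicates 2 and 3 and 14.3, 11.6 and 10.5 in fed replicates 1 to 3. In all 3 of these every fed value, as deposited, was above every fasted value that could be read. The missing fasted values are unknown and no share over all regions was taken, so nothing is read from this. The regions starting at 113121395, 113134504 and 113299449 had 1 fasted hotspot each, at 4.54 to 5.72, and 1 or 2 fed hotspots, at 6.62 to 8.83. The last 7 regions were called in 1 library only, as were 19.5% of all regions, at densities of 4.58 to 8.01. Of these hotspots 3 came from fasted replicate 2, 1 from fasted replicate 3 and 3 from fed replicate 3, and the part of depth in these calls was not tested.

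**Figure D4:**
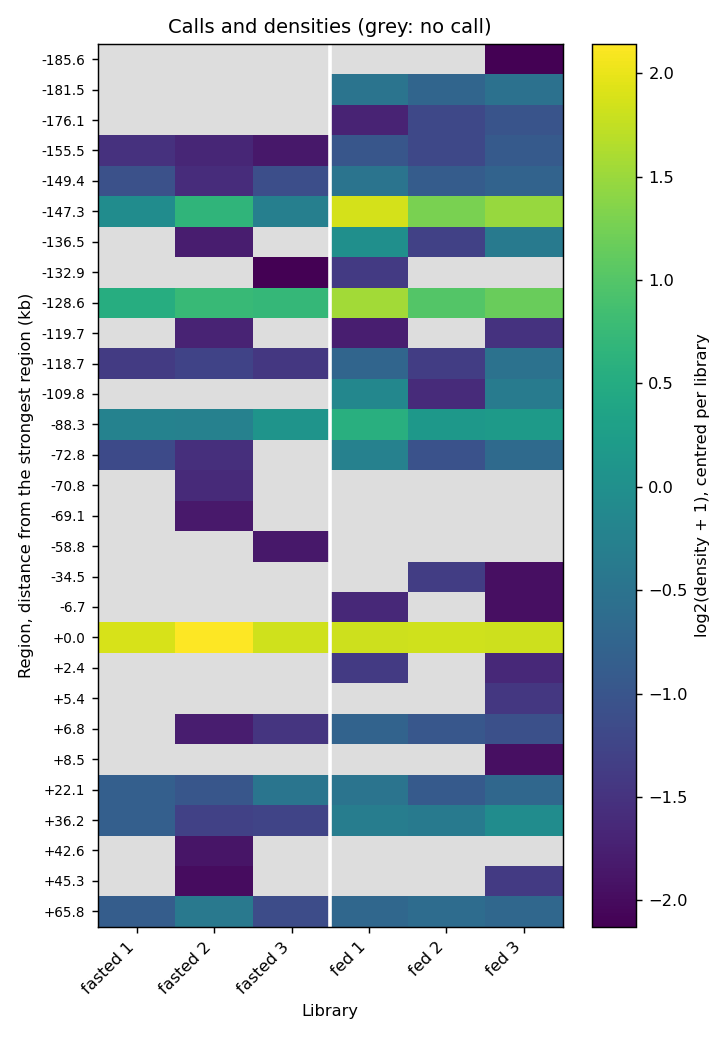
Centred log2(density + 1) of the 29 regions, in order along the chromosome with distance in kb from the strongest region, in the fasted (left) and fed (right) libraries, with grey where a library had no hotspot. Hotspots fill 11, 18 and 13 cells in fasted replicates 1 to 3 and 20, 17 and 24 cells in fed replicates 1 to 3.

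The replicates of a group were not equally far from the other group. Fed replicate 2 was the lowest fed library at 8 of the 10 shared regions, both as deposited and after centring. Fed replicate 1, at nearly the same depth, was the highest fed library at 8 of the 10 as deposited and at 5 after centring. Among fasted libraries replicate 2 was lowest at 6 of the 10 as deposited, and replicate 3 was lowest at 5 after centring. The median centred value over the 10 regions was -0.83, -0.69 and -0.78 in fasted replicates 1 to 3 and -0.40, -0.50 and -0.29 in fed replicates 1 to 3, so that all 6 libraries lay under their own median region here.

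The regions of the window were of common width and no library split any of them, with at most 1 hotspot per region and library. Their median width was 746 bp, against 757 bp over all regions, and gaps between them ran from 0.37 to 27.4 kb with a median of 5.26 kb. The 10 shared regions had a median density of 14.5, against 23.7 over all shared regions, and 34.5% of the window's regions were shared, against 49.3% of all. Their median spread within groups, 0.23 on the log2 scale, was close to the 0.23 of all shared regions.

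At the edges of the window, the nearest region outside on the left (112986281 to 112987440) had 11.6, 6.91 and 7.57 in fasted and 11.4, 12.0 and 11.9 in fed replicates 1 to 3, and the first inside (113068738 to 113069062) was called in fed replicate 3 only, at 4.58. The last inside was the region at 113319900, given above. The first outside on the right (113323842 to 113324295) was called in fasted replicates 2 and 3 only, at 5.33 and 6.66. In the 500 kb before the window 19 shared regions had a median log2 difference of -0.04, with 1 that passed as lower and 1 as higher in fasted livers. In the 500 kb after the window 9 shared regions had a median of 0.06 and 0 passed in either direction (limma). Over all shared regions 7.84% passed as lower and 7.89% as higher, so few passes were to be looked for in so few regions. An unadjusted p under 0.05 (limma) was found at 0 of the 9 as lower and 0 as higher. Over all 37044 shared regions it was found at 4853 as lower and 5390 as higher. The difference between the window and its flanks was not tested, since the window was chosen by it.

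The profile of the 4 shared regions that passed was compared with 37034 shared regions elsewhere, as the root mean square distance between deviations from each region's own mean on the log2 scale over the 6 libraries. The nearest 5 lay on chromosome 9 (67661373 to 67662233, distance 0.052), chromosome 13 (52245493 to 52246334, 0.059), chromosome 15 (51046208 to 51047094, 0.062), chromosome 16 (10648593 to 10649844, 0.063) and chromosome 10 (41987780 to 41988534, 0.065). The median distance over all regions was 0.477. The nearest of them had 18.2, 16.6 and 14.8 in fasted and 34.6, 26.6 and 32.0 in fed replicates 1 to 3. The log2 differences of the 5 ran from -0.87 to -0.70. Their order of libraries and the sign of their differences follow from how they were picked.

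Of 2 other stretches of lower hotspots in fasted livers, both also chosen by this contrast, the one on chromosome 13 from 46.11 to 46.15 Mb held 6 shared regions with a median log2 difference of -0.88. The one on chromosome 9 from 74.17 to 74.18 Mb held 5 with a median of -1.11. From 113072461 to 113145103 in the present window 5 shared regions had a median of -0.58 and ran from -1.43 to -0.49. The bounds of that run were set by regions lower in fasted livers, so its median follows in part from that rule. These are values side by side, with no test between stretches.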

How the data were processed

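DNase I hypersensitivity was measured in 6 libraries from mouse liver. Per the labels' protocols, nuclei were digested with 40 U/ml of DNase I, and sucrose gradients kept the 100 to 500 bp fragments. The submitters' processing notes name CASAVA 1.8 and mm9; neither aligner nor hotspot caller is named in the sources used here. The authors deposited 1 hotspot list per library, with maximum and average tag density (a coverage signal), a p-value and a z-score. The authors' score and p-value were not used. The lists held 49682 to 63476 hotspots. Every maximum density was a whole multiple of 1 step per library (100% within 0.05 step), which gave relative depth.

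Hotspots on chromosomes 1 to 19 and X that shared 1 bp were merged (Python 3.11.15, pandas 2.3.3, numpy 2.4.6), and a region's value in a library is its highest maximum density there. Shared regions were fitted with limma 3.58.1 (R 4.3.3; mean-variance trend) on log2(density + 1), and the fit was tested on simulated data. Plots used matplotlib 3.10.9. Densities are not counts, so no count model was used. The members and lists were chosen with earlier results of these data known. Named in full are shared regions whose groups do not overlap, the 3 strongest, and regions with at least 2 calls in 1 group and 0 in the other; the remaining shared regions were added. Genes of the gp130 pathway and cell type markers were listed for placement on mm9 and not analysed here.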

Additional observations from a re-analysis of the deposited data

How the results depend on the processing

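The difference at 113106592 stayed below 0 and passed under all 17 alternatives (-1.71 to -1.19), and that at 113290042 under all 16 in which it was fitted (-1.02 to -0.54). The regions at 113098596 and 113125383 kept their sign but passed in 7 of 16 and 11 of 17. Of 164 values of single regions, 144 kept direction and side of the threshold, 15 no longer passed and 1 newly passed. Differences near 0 turned at 113276292 (0.013 with quantile normalization; -0.20 without fasted replicate 3 to 0.061 without fed replicate 1, and 0.057 without fasted replicate 2) and at 113319900 (-0.33 without fasted replicate 2 to 0.047 without fasted replicate 3). The 4 regions lower in fasted livers became 2 among the denser 50% of regions, which held 4 of the 10, and 2 with the replicate block; leaving out each replicate gave 2 to 3, with 2 without fasted replicate 1, fasted replicate 3, fed replicate 1 or fed replicate 3. The median of -0.52 became -0.31 with a pseudocount of 10 and -0.65 with each library scaled to the strongest region, which was chosen after seeing the data; leaving out each replicate gave -0.66 (without fed replicate 2) to -0.41 (without fed replicate 1). The 3 regions called in every fed and no fasted library became 3 to 5 when single replicates were left out (5 without fed replicate 2, where fewer libraries must agree). No share over all regions was taken under these looser rules, so nothing is read from the rise. Genome-wide, 2921 higher regions became 1946 with no centring and 1401 in that denser 50%, and 2905 lower ones became 3189 and 1540, so 50.1% of calls were higher with centring and 37.9% without. Deviations from the group means in libraries of the same number correlated at -0.067, -0.030 and -0.167, so no positive link by number was seen. This cannot show whether libraries of the same number were prepared together. With the replicate block 2535 regions were higher and 2539 lower genome-wide. Leaving out each replicate gave 2021 (without fed replicate 3) to 2738 (without fasted replicate 2) lower regions genome-wide. Other causes were not tested. Weak hotspots of 16 to 30 steps limit what missing calls can show.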

Other observations

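In the 500 kb before the window, 2 of 31 regions were called in all 3 fed and 0 fasted libraries, against 1.57% of all regions. The region of chromosome 13 from 112878350 to 112879157 had 32.0, 18.0 and 19.5 in fed replicates 1 to 3, and the region from 112913019 to 112913721 had 19.9, 11.2 and 16.2. They lay 375.8 and 341.2 kb before its strongest region. Between them and the window a region from 112942742 to 112943849 was open in every library, at 39.2, 33.7 and 26.9 in fasted and 38.2, 42.3 and 38.4 in fed replicates 1 to 3.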
